A study of Caenorhabditis elegans with 8 samples.

Results

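Nuclear-encoded genes of oxidative phosphorylation were examined in whole Caenorhabditis elegans in which the gene cpr-6, which encodes a lysosomal protease of the cathepsin B family, was knocked down by RNA interference. The genes were chosen by the names in the deposited gene table: the nuo, nduf, sdh, ucr, cox, atp, asb and asg families, together with gas-1, lpd-5, mev-1, cyc-1, isp-1, cyc-2.1, hpo-18 and clk-1, leaving out the mitochondrial genome. This gave 51 of the 46904 genes listed. By complex they comprised 12 genes of complex I, 5 of complex II, 7 of complex III, cytochrome c, 7 subunits of complex IV, 8 genes carrying the cox names of complex IV assembly factors, 10 of complex V, and clk-1. Of these, 50 had enough reads to be tested among 10932 genes in all. The exception, cox-14, had 5 counts in total. Further subunit genes, listed under sequence names, were outside this choice. Sums and counts per complex therefore cover the chosen genes only.

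There were 2 groups of 4 libraries, each library made from a pool of animals. In the first, animals ate HT115 (DE3) bacteria expressing cpr-6 RNAi. In the second, they ate the same bacteria carrying an empty vector (EV). All animals were of the strain CL2006, which carries an amyloid beta transgene expressed in body wall muscle and whose genotype the labels otherwise give as WT. They belonged to the second generation raised on the given bacteria at 20 °C. Collection took place on day 6 of adult life, and offspring were washed away daily until then. No group without the transgene was analysed here. Libraries came from CEL-Seq2, which reads the 3′ ends of polyadenylated transcripts, and held 8184412 to 12506320 counts each. The series text calls the replicates biological, yet no label names separate cultures, so the p-values measure only the spread between these libraries. In pools of whole worms, fewer cells of a type and less RNA per cell cannot be told apart.

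Oxidative phosphorylation is carried out in the inner mitochondrial membrane. Complex I takes electrons from NADH and complex II takes them from succinate. Both pass them through ubiquinone to complex III, and from there cytochrome c carries them to complex IV, which reduces oxygen. Complexes I, III and IV pump protons, and complex V, the ATP synthase, uses the resulting gradient to make ATP. Complexes I, III, IV and V also contain subunits encoded in mitochondrial DNA. In C. elegans this pathway is known for its links to ageing: isp-1, nuo-6 and clk-1 mutants live long, whereas mev-1 and gas-1 mutants are short-lived and sensitive to oxygen.

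The knockdown was present in every library labelled for it. cpr-6 stood at 79.5, 80.2, 65.6 and 101 CPM (TMM-scaled counts, expressed as the usual CPM) under cpr-6 RNAi, against 749, 731, 773 and 780 CPM under EV. The log2 fold change was -3.22 ± 0.114 (SE; edgeR quasi-likelihood test, Benjamini-Hochberg adjusted p = 2.00e-10). One library, cpr-6 RNAi replicate 4, stood apart from the other 7. Its summed CPM for 12 mitochondrially encoded subunits was 19764, against 7773 to 11002 in the others. Summed germline markers (8 genes) stood at 5020 CPM there and at 6799 to 8119 CPM elsewhere. The main counts and medians, and the estimates of several single genes, are also given without it.

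No nuclear oxidative phosphorylation gene passed the test under cpr-6 RNAi. Of the 50 tested, 0 were called higher and 0 lower by edgeR at an adjusted p under 0.05. Over all 10932 tested genes, 0.0% were called higher and 0.00915% lower. The latter was 1 gene, cpr-6 itself, so no gene but the knockdown target passed this test. At an unadjusted p under 0.05 the counts for the 50 were also 0 higher and 0 lower, against backgrounds of 2.39% and 1.46%. DESeq2 and limma voom likewise called 0 of the 50. The smallest unadjusted p was 0.0574, for ucr-2.2, and the smallest adjusted p among the 50 was 0.997 (edgeR).

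The estimates were small and narrowly bounded. The median log2 fold change was 0.06, the lowest was -0.13 (sdha-2) and the highest was 0.33 (cox-17). Over all tested genes the median was 0.00. The 95% interval lay within 0.5 of 0 on the log2 scale for 48 of the 50 genes and within 1 for all 50. The 2 genes reaching past 0.5 were ucr-2.2, with an upper bound of 0.52, and cox-17, with one of 0.76. The median half-width of the interval was 0.20 for these genes and 0.33 for all tested genes. For the 2959 tested genes in the middle range of these genes' abundance it was 0.21.

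Most estimates lay above 0. The value was positive for 42 of 50 genes (84.0%), against 50.2% of all tested genes. In the middle range of abundance of these genes it was positive for 20 of 24 of them (83.3%) and for 37.5% of 2959 tested genes, whose median was -0.03. It was positive in 10 of 12 genes of complex I, 3 of 5 of complex II, 5 of 7 of complex III, 7 of 7 subunits of complex IV, 5 of 7 tested assembly names and 10 of 10 genes of complex V. Without cpr-6 RNAi replicate 4 the count was again 42 and the median 0.05, with 6 of 7 subunits of complex IV and 9 of 10 genes of complex V positive. Within replicates 1 and 2 alone 38 values were positive, with a median of 0.04, and within replicates 3 and 4 alone 37 were, with a median of 0.05. None of these estimates passed the test singly, and subunit transcripts measured in the same 8 libraries are not independent of each other. The counts are therefore a description.

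**Figure D1:**
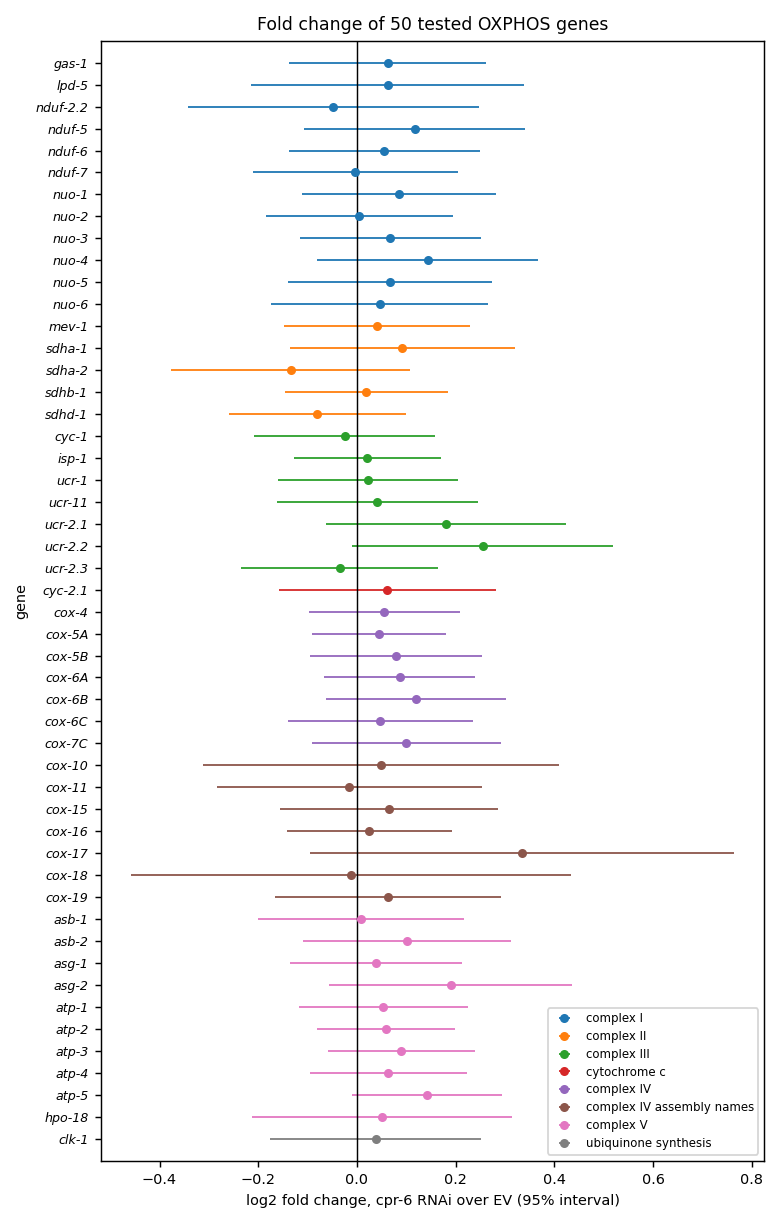
Log2 fold change of each of the 50 tested genes (cpr-6 RNAi over EV, x axis; points) with its 95% interval (lines), ordered by complex down the page and coloured by complex. Points lie between -0.13 and 0.33, and every interval crosses 0.

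Summed over all 51 genes, transcripts stood at 13442, 13553, 13041 and 13697 CPM under cpr-6 RNAi, against 13216, 12681, 12588 and 13117 CPM under EV. The groups overlapped, with cpr-6 RNAi replicate 3 below EV replicates 1 and 4. The means were 13433 ± 282 CPM under cpr-6 RNAi and 12900 ± 312 CPM under EV (SD, n = 4 each), a difference of 4.13%. In every library these genes took between 1.28% and 1.38% of all counts.

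Levels per gene spanned several orders of magnitude. They are compared here as mean CPM per kilobase of annotated exon over the 8 libraries. In a 3′-end method this scale favours short genes. The highest were cox-5A at 2395 CPM per kb, hpo-18 at 1887, cox-6A at 1451, atp-2 at 1165 and cyc-2.1 at 1084. Subunits of complex IV lay between 340 and 2395 CPM per kb, and those of complex V between 77.7 and 1887. Complex I genes were lower, between 14.7 and 197 CPM per kb. The lowest tested genes were the assembly names cox-18 at 3.78 and cox-10 at 5.68 CPM per kb.

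**Figure D2:**
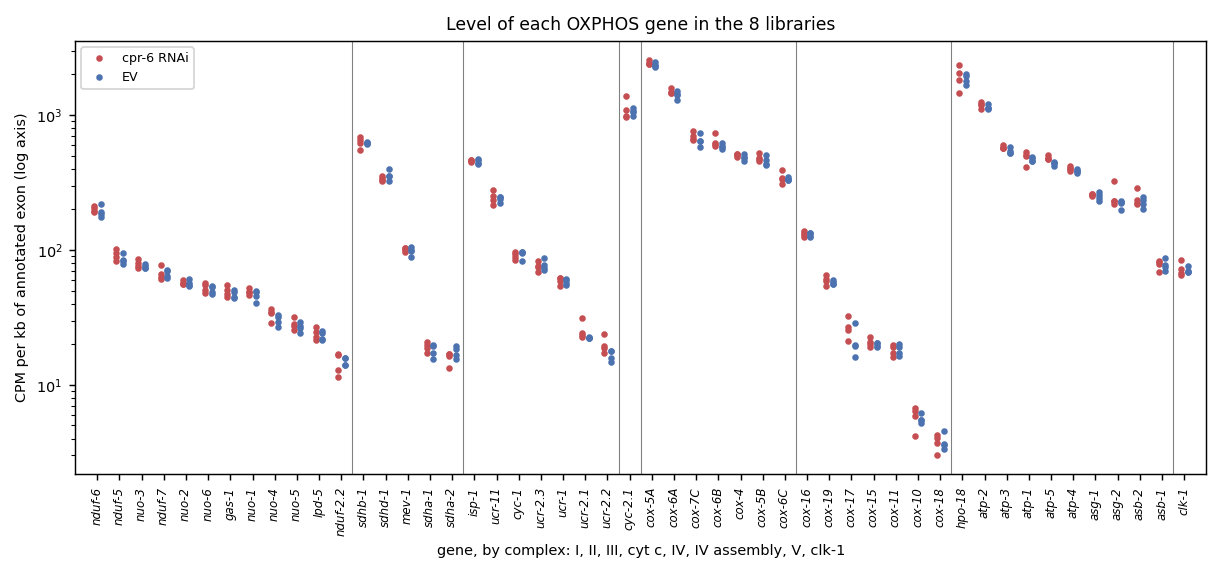
Level of each tested gene in CPM per kilobase of annotated exon (log axis) in the 4 cpr-6 RNAi libraries (red, left of each pair) and the 4 EV libraries (blue), grouped by complex and sorted within it. The 2 groups lie on top of each other for most genes, and the levels run from 3.78 (cox-18) to 2395 (cox-5A) on average.

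Complex I, the NADH dehydrogenase, summed over its 12 chosen genes to 713 ± 25.1 CPM under cpr-6 RNAi and 685 ± 19.4 CPM under EV (SD, n = 4 each). Its 12 fold changes lay between -0.05 and 0.14, with a median of 0.06, and none passed the test. gas-1 encodes the 49 kDa core subunit and had 75.01, 85.6, 79.6 and 92.1 CPM under cpr-6 RNAi, against 74.1, 75.6, 85.3 and 82.9 CPM under EV. The groups overlapped, and the log2 fold change was 0.06 ± 0.0942 (SE; unadjusted p = 0.520, edgeR), or 0.01 without cpr-6 RNAi replicate 4. lpd-5 encodes the counterpart of human NDUFS4 and had 14.1, 16.6, 15.3 and 13.3 CPM under cpr-6 RNAi, against 15.4, 13.1, 13.4 and 14.9 CPM under EV (log2 fold change 0.06 ± 0.13). The furthest from 0 was nuo-4, an accessory subunit, at 54.9 ± 5.31 CPM under cpr-6 RNAi and 49.7 ± 4.64 CPM under EV (SD, n = 4 each; log2 fold change 0.14, edgeR unadjusted p = 0.192). nduf-5 followed at 0.12 (edgeR unadjusted p = 0.286). nduf-6, a subunit of the peripheral arm, had the most counts of the complex, at 106 ± 4.56 CPM under cpr-6 RNAi and 102 ± 10.1 CPM under EV. nuo-1, which encodes the flavoprotein that binds NADH, stood at 78.6 ± 3.75 CPM under cpr-6 RNAi and 74.1 ± 6.46 CPM under EV. nuo-6, in which a known mutation extends lifespan, stood at 34.04 ± 2.67 CPM under cpr-6 RNAi and 32.95 ± 2.09 CPM under EV.

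Complex II, the succinate dehydrogenase, is the only complex of the chain with no mitochondrially encoded subunit. Its 5 chosen genes summed to 1018 ± 73.9 CPM under cpr-6 RNAi and 1019 ± 30.95 CPM under EV (SD, n = 4 each), a difference of -0.126%. mev-1 encodes the cytochrome b subunit that anchors the complex and had 72.4, 75.9, 75.3 and 69.8 CPM under cpr-6 RNAi, against 72.4, 64.5, 76.6 and 71.7 CPM under EV. Those libraries overlapped, at a log2 fold change of 0.04 ± 0.0885 (SE; edgeR unadjusted p = 0.653). sdhb-1, the iron-sulfur subunit, had the most counts of this complex, with 722, 654, 690 and 580 CPM under cpr-6 RNAi and 639, 654, 653 and 666 CPM under EV. The cpr-6 RNAi libraries spread on both sides of the EV ones, with replicate 4 lowest and replicate 1 highest. sdhd-1, the other membrane anchor, had a log2 fold change of -0.08 (edgeR unadjusted p = 0.356).

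Complex III, the cytochrome bc1 complex, summed over its 7 chosen genes to 923 ± 9.80 CPM under cpr-6 RNAi and 909 ± 24.9 CPM under EV (SD, n = 4 each). isp-1 encodes its Rieske iron-sulfur protein and had the smallest spread of all 50 tested genes. It stood at 454, 453, 461 and 446 CPM under cpr-6 RNAi, against 468, 433, 457 and 430 CPM under EV. With a residual SD of 0.04 on the log2 scale, where counting alone gives 0.02, its log2 fold change was 0.02, with a 95% interval of -0.13 to 0.17 (edgeR). cyc-1 encodes cytochrome c1 and stood at 123, 141, 129 and 136 CPM under cpr-6 RNAi, against 140, 137, 121 and 140 CPM under EV, at a log2 fold change of -0.02 ± 0.0859 (SE; edgeR unadjusted p = 0.776). The 2 groups covered nearly the same range. C54G4.7, on the opposite strand to cyc-1 and overlapping it, had 4191 counts to the 10989 of cyc-1. Whether strand was used in counting is not given in the sources used here, so how reads in such overlaps were assigned is not known. ucr-1, a core protein, and ucr-11, a small subunit, had log2 fold changes of 0.02 and 0.04.

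ucr-2.2, one of 3 genes for the second core protein of complex III, had the smallest p of the 50. It stood at 27.7, 26.9, 24.95 and 34.3 CPM under cpr-6 RNAi, against 21.2, 22.6, 25.6 and 25.7 CPM under EV. cpr-6 RNAi replicate 3 lay below EV replicates 3 and 4, so the groups overlapped. This gave a log2 fold change of 0.26 ± 0.124 (SE), with a 95% interval of -0.01 to 0.52 and an unadjusted p of 0.0574 (edgeR). Without cpr-6 RNAi replicate 4 it was 0.15. pkhm-2 overlaps this gene on the opposite strand and had 3382 counts to its 2147.

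Cytochrome c is represented by cyc-2.1. It stood at 543, 601, 530 and 758 CPM under cpr-6 RNAi, against 581, 541, 586 and 623 CPM under EV. The replicate 4 value under cpr-6 RNAi was above all other libraries, while replicate 1 of that group lay below 3 of the 4 EV libraries and replicate 3 below all 4. The log2 fold change was 0.06 ± 0.103 (SE; edgeR unadjusted p = 0.557), and -0.06 without cpr-6 RNAi replicate 4.

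Complex IV, cytochrome c oxidase, summed over its 7 chosen nuclear subunits to 4219 ± 120 CPM under cpr-6 RNAi and 4028 ± 187 CPM under EV (SD, n = 4 each), a difference of 4.73%. Their fold changes were the most alike of any multi-gene complex, between 0.04 and 0.12 with a median of 0.08. cox-5A had the most counts, with 1773, 1890, 1800 and 1774 CPM under cpr-6 RNAi against 1853, 1720, 1697 and 1749 CPM under EV. EV replicate 1 was the second highest of these 8 values, so the groups overlapped (log2 fold change 0.04 ± 0.0638, edgeR unadjusted p = 0.501). cox-6B had the largest estimate of the complex. It stood at 348, 354, 335 and 425 CPM under cpr-6 RNAi, against 353, 323, 330 and 338 CPM under EV (log2 fold change 0.12, edgeR unadjusted p = 0.182). The estimate was 0.04 without cpr-6 RNAi replicate 4, and nduc-2 overlaps cox-6B on the same strand. cox-6A followed at 801 ± 33.2 CPM under cpr-6 RNAi and 754 ± 47.1 CPM under EV (log2 fold change 0.09 ± 0.0723, edgeR unadjusted p = 0.251). cox-7C stood at 272 ± 19.4 CPM under cpr-6 RNAi and 253 ± 25.8 CPM under EV (log2 fold change 0.10 ± 0.0902, edgeR unadjusted p = 0.284). cox-6C had the fewest counts, at 138 ± 13.9 CPM under cpr-6 RNAi and 134 ± 3.16 CPM under EV.

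The 8 genes with assembly names of complex IV were less abundant per kb than its 7 subunits. cox-17 delivers copper to the enzyme and had the largest estimate of all 50 tested genes. It stood at 8.57, 8.21, 10.5 and 6.77 CPM under cpr-6 RNAi, against 6.39, 6.26, 9.26 and 5.16 CPM under EV. The groups overlapped, since EV replicate 3 lay above 3 of the 4 cpr-6 RNAi libraries. The log2 fold change of 0.33 ± 0.202 (SE) had a 95% interval of -0.10 to 0.76 and an unadjusted p of 0.119 (edgeR). Its residual SD of 0.30 was the largest of the group, where counting alone gives 0.17. The estimate was 0.53 without EV replicate 3 and 0.22 without cpr-6 RNAi replicate 3. cox-10 and cox-15, which make heme A, had log2 fold changes of 0.05 and 0.07. cox-11 and cox-19, both linked to copper delivery, had -0.02 and 0.06. cox-18, which inserts a core subunit into the membrane, had the fewest counts of those tested, at 4.04 ± 0.560 CPM under cpr-6 RNAi and 4.08 ± 0.578 CPM under EV.

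The gene listed as cox-16 (WBGene00016062) stood at 160 ± 7.38 CPM under cpr-6 RNAi and 158 ± 5.64 CPM under EV (SD, n = 4 each). In the current gene name table that identifier is C24G6.8, and cox-16 belongs to WBGene00302991, which had 1 count over all libraries. The values under cox-16 may thus not be those of the assembly factor. WBGene00302991 overlaps WBGene00016062 on the same strand, so its 1 count may not measure its expression.

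Complex V, the ATP synthase, had the largest summed level of the chosen genes, at 5648 ± 180 CPM under cpr-6 RNAi and 5381 ± 113 CPM under EV (SD, n = 4 each), a difference of 4.96%. Its 10 fold changes ran from 0.01 to 0.19, with a median of 0.06. atp-2 encodes the catalytic beta subunit and had the most counts of all 51 genes. It stood at 2428, 2278, 2153 and 2313 CPM under cpr-6 RNAi, against 2127, 2162, 2176 and 2340 CPM under EV (log2 fold change 0.06 ± 0.0657, edgeR unadjusted p = 0.383). The groups overlapped, with cpr-6 RNAi replicate 1 highest and EV replicate 1 lowest.

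atp-5, which encodes subunit d of the peripheral stalk, was 1 of 2 genes whose groups did not overlap. It stood at 372, 398, 379 and 372 CPM under cpr-6 RNAi, against 354, 329, 351 and 346 CPM under EV. All 4 cpr-6 RNAi libraries lay above all 4 EV libraries. Its log2 fold change of 0.14 ± 0.0716 (SE) had a 95% interval of -0.01 to 0.29 and an unadjusted p of 0.0652 (edgeR). Without cpr-6 RNAi replicate 4 it was 0.15. The other such gene was ucr-2.1, so 2 of the 50 did not overlap with cpr-6 RNAi higher and 0 did not with cpr-6 RNAi lower, against 1.26% and 1.25% of all tested genes.

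Among the remaining genes of the ATP synthase, atp-3, for the oligomycin sensitivity protein of the stalk, had 596 ± 14.1 CPM under cpr-6 RNAi and 560 ± 28.3 CPM under EV (log2 fold change 0.09, edgeR unadjusted p = 0.218). atp-1, for the alpha subunit, had 1078, 1017, 1024 and 843 CPM under cpr-6 RNAi and 974, 995, 922 and 928 CPM under EV. As for sdhb-1, cpr-6 RNAi replicate 4 was the lowest of the 8 libraries and cpr-6 RNAi replicate 1 the highest. hpo-18, for the small epsilon subunit of the F1 head, was among the most variable relative to its counting error. It stood at 530, 597, 420 and 680 CPM under cpr-6 RNAi, against 581, 518, 487 and 565 CPM under EV. Its residual SD was 0.22, where counting alone gives 0.02, and its log2 fold change of 0.05 ± 0.122 (SE; edgeR unadjusted p = 0.683) was -0.06 without cpr-6 RNAi replicate 4.

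clk-1 encodes a hydroxylase of ubiquinone synthesis. It stood at 48.5, 62.5, 50.4 and 53.7 CPM under cpr-6 RNAi, against 56.04, 51.9, 50.7 and 50.8 CPM under EV. Replicates 1 and 2 of the cpr-6 RNAi group were the lowest and the highest of the 8. Its log2 fold change was 0.04 ± 0.101 (SE; edgeR unadjusted p = 0.714).

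**Figure D3:**
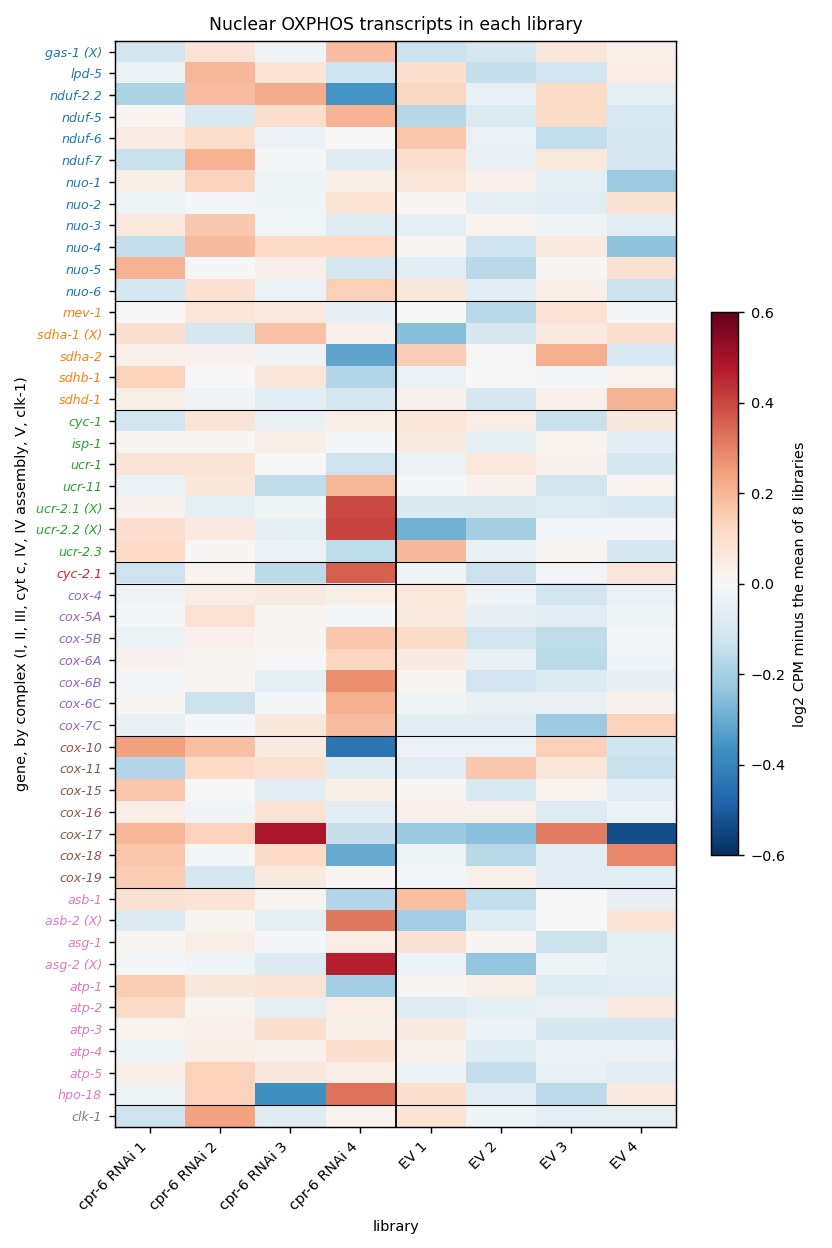
Each tested gene (rows, by complex; X-linked genes marked) in the 4 cpr-6 RNAi libraries (left) and the 4 EV libraries (right), as log2 CPM minus the gene's mean over the 8 libraries, with the scale limited to 0.6 in either direction. The most deeply coloured column is cpr-6 RNAi replicate 4, where 16 genes had their highest and 10 their lowest value of the 8.

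Variation between libraries was uneven across the genes. cpr-6 RNAi replicate 4 held the highest of the 8 values for 16 of 50 genes and the lowest for 10. In the other 7 libraries the highest values numbered 1 to 9 and the lowest 2 to 10. The genes high in replicate 4 included all but 1 of the 6 that lie on the X chromosome: gas-1, ucr-2.1, ucr-2.2, asb-2 and asg-2, with sdha-1 as the exception. Each of the 6 has an autosomal paralog among the 51 genes. The paralog pairs were listed with the other comparisons, whereas the division by chromosome was chosen after the values were seen.

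All 6 X-linked genes had positive fold changes, with a median of 0.14, against 0.05 for the 44 tested autosomal genes, of which 36 were positive. X-linked genes of the whole table also leaned upward: 64.3% of 1530 tested X genes were positive with a median of 0.07, against 47.8% of 9388 autosomal genes with a median of -0.01. Without cpr-6 RNAi replicate 4 the share was 45.9% for X genes and 50.03% for autosomal genes. Without cpr-6 RNAi replicate 4 the median of the 6 was 0.05, close to the 0.05 of the autosomal genes under the same setting. In that library the 6 genes lay a median of 0.36 log2 units above their means and all tested X genes lay 0.27 above, while the 8 germline markers lay 0.49 below. In cpr-6 RNAi replicates 1 to 3 the 6 genes lay 0.01, 0.00 and -0.04 from their means, and in EV replicates 1 to 4 they lay -0.17, -0.10, 0.00 and 0.01 from them. Body wall muscle markers (10 genes) were lowest in EV replicates 1 and 2, at -0.49 and -0.26. The part of tissue make-up in these values was not tested.

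**Figure D4:**
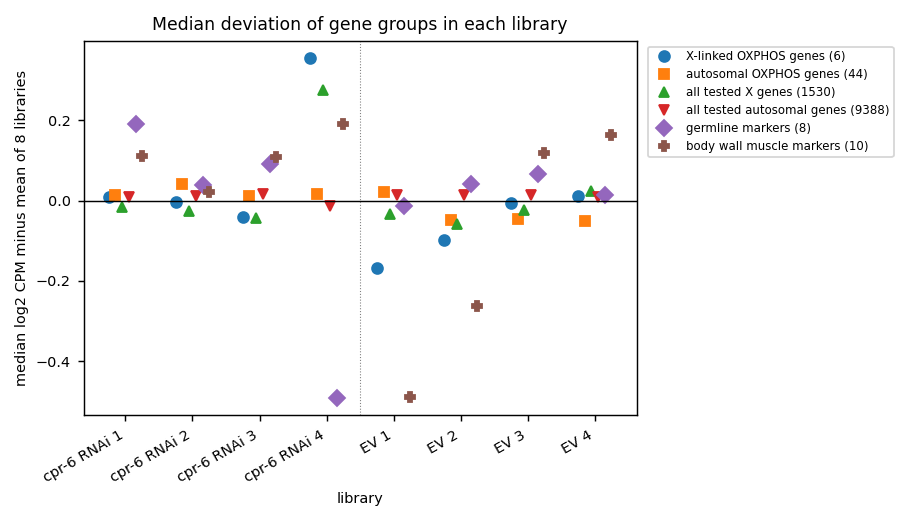
Median deviation of 6 gene groups in each library (log2 CPM minus the mean of the 8 libraries; y axis), with cpr-6 RNAi libraries on the left and EV libraries on the right. In cpr-6 RNAi replicate 4 the X-linked oxidative phosphorylation genes (0.36) and all X genes (0.27) were high and the germline markers (-0.49) low, and in EV replicate 1 the muscle markers were low (-0.49).

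The share of a pair's counts that came from its X-linked gene was highest in cpr-6 RNAi replicate 4 for every pair. For the ATP synthase b subunit, asb-2 is the paralog of somatic tissue and asb-1 that of the germline. asb-2 supplied 75.4%, 76.7%, 76.6% and 82.9% of the pair's counts under cpr-6 RNAi, against 72.5%, 78.4%, 77.6% and 79.1% under EV. Its 95% Wilson intervals, which cover counting error only, were at most 1.58 points to either side. asb-2 itself had 259, 277, 263 and 341 CPM under cpr-6 RNAi and 237, 260, 275 and 290 CPM under EV (log2 fold change 0.10 ± 0.0991, edgeR unadjusted p = 0.319). asb-1 had 84.5, 84.2, 80.4 and 70.4 CPM under cpr-6 RNAi and 90.02, 71.7, 79.4 and 76.8 CPM under EV (log2 fold change 0.01 ± 0.0981). Without cpr-6 RNAi replicate 4 the asb-2 fold change was 0.00.

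For subunit g of the ATP synthase, asg-2 supplied 48.6%, 47.9%, 47.8% and 56.3% of its pair's counts under cpr-6 RNAi, against 46.8%, 44.8%, 50.7% and 49.0% under EV. asg-2 stood at 115.4, 114, 110 and 160 CPM under cpr-6 RNAi and at 113, 98.8, 114 and 111 CPM under EV. The log2 fold change of 0.19 ± 0.116 (SE; edgeR unadjusted p = 0.121) was 0.04 without cpr-6 RNAi replicate 4. Its autosomal partner asg-1 had 122, 124, 120 and 125 CPM under cpr-6 RNAi and 129, 122, 111 and 116 CPM under EV (log2 fold change 0.04 ± 0.0821).

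For the 49 kDa subunit of complex I, gas-1 supplied 79.7%, 77.6%, 75.9% and 84.5% of the counts of gas-1 and nduf-2.2 under cpr-6 RNAi, against 75.8%, 78.2%, 78.3% and 79.8% under EV. nduf-2.2 had 19.1, 24.7, 25.3 and 16.9 CPM under cpr-6 RNAi and 23.7, 21.04, 23.6 and 20.9 CPM under EV. Its lowest and highest values both fell in the cpr-6 RNAi group, and its log2 fold change was -0.05 ± 0.138 (SE; edgeR unadjusted p = 0.733), or 0.04 without cpr-6 RNAi replicate 4.

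For the flavoprotein of complex II, sdha-1 supplied 57.8%, 54.4%, 59.96% and 62.4% of its pair's counts under cpr-6 RNAi, against 49.7%, 55.0%, 54.01% and 59.9% under EV. sdha-1 had 47.4, 41.1, 49.99 and 45.2 CPM under cpr-6 RNAi and 37.1, 41.5, 46.2 and 47.4 CPM under EV (log2 fold change 0.09 ± 0.107). sdha-2 had 34.6, 34.4, 33.4 and 27.2 CPM under cpr-6 RNAi and 37.5, 33.9, 39.3 and 31.7 CPM under EV. The high share in replicate 4 thus went with a low sdha-2 and not with a high sdha-1. The sdha-2 fold change of -0.13 ± 0.114 (SE; edgeR unadjusted p = 0.258), the lowest of the 50, was -0.06 without that library.

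For the second core protein of complex III, ucr-2.3 is autosomal and the other 2 genes are X-linked. ucr-2.1 supplied 23.7%, 24.0%, 24.9% and 32.6% of the counts of itself and ucr-2.3 under cpr-6 RNAi, against 21.3%, 24.2%, 23.6% and 24.9% under EV. For ucr-2.2 the shares were 19.9%, 20.6%, 19.9% and 27.05% under cpr-6 RNAi, against 15.2%, 18.4%, 19.7% and 21.1% under EV. ucr-2.1 stood at 34.6, 32.6, 33.4 and 44.7 CPM under cpr-6 RNAi, against 32.0, 32.0, 32.1 and 31.9 CPM under EV. The groups did not overlap, by a margin of under 1 CPM between the nearest libraries. The log2 fold change of 0.18 ± 0.114 (SE; edgeR unadjusted p = 0.136) was 0.06 without cpr-6 RNAi replicate 4. The deposited span of ucr-2.1 (WBcel235 chromosome X, 11968034 to 12021212) covers several other genes. ucr-2.3 had 112, 104, 101 and 92.6 CPM under cpr-6 RNAi and 118, 100, 104 and 96.2 CPM under EV, at a log2 fold change of -0.03 ± 0.0938. zer-1, on the opposite strand, overlaps ucr-2.3 and had 17416 counts to its 8536.

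**Figure D5:**
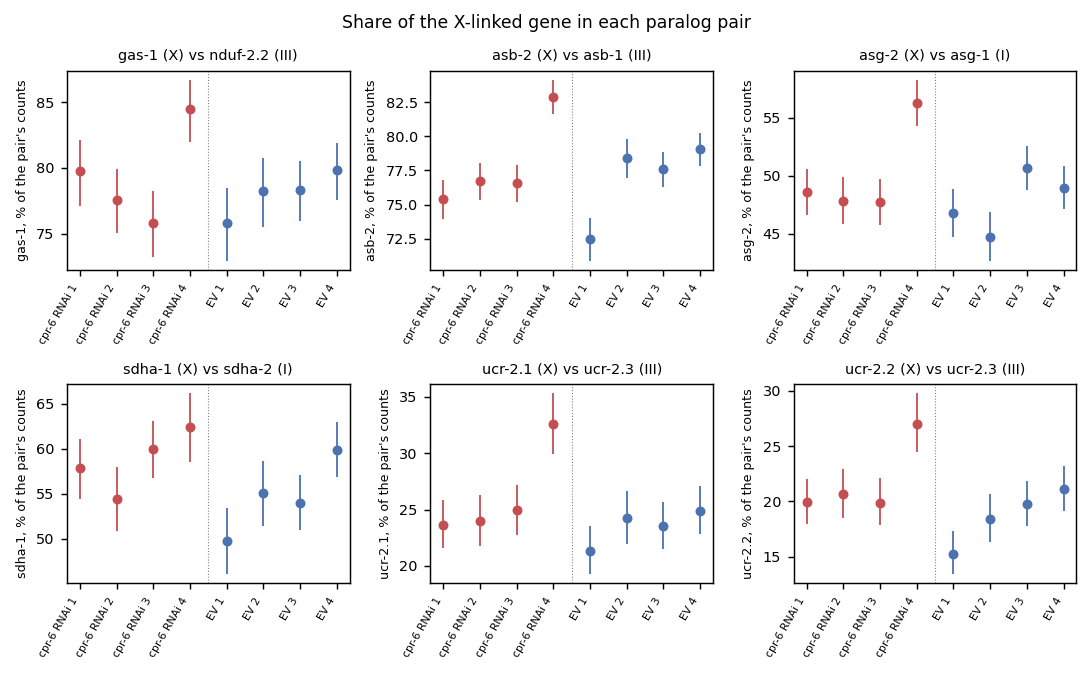
Share of the X-linked gene in the counts of each paralog pair (percent, y axis; axes do not start at 0), with 95% Wilson intervals, in the 4 cpr-6 RNAi libraries (red) and the 4 EV libraries (blue). cpr-6 RNAi replicate 4 is the highest point in all 6 panels, for example 82.9% for asb-2 and 56.3% for asg-2.

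The 12 mitochondrially encoded subunits, which assemble with these nuclear ones, had positive fold changes in 12 of 12 cases with a median of 0.32, and 0 passed the test. This direction turned when cpr-6 RNAi replicate 4 was left out, with 0 of 12 positive and a median of -0.13. Their summed level was 7987, 8283, 8570 and 19764 CPM under cpr-6 RNAi, against 11002, 8548, 7773 and 8150 CPM under EV. Apart from cpr-6 RNAi replicate 4, EV replicate 1 was the highest, so the groups overlapped. The nuclear sum over the mitochondrial sum was 1.68, 1.64, 1.52 and 0.693 under cpr-6 RNAi, against 1.201, 1.48, 1.62 and 1.61 under EV. The nuclear sum in replicate 4 was 13697 CPM, the highest of the 8, and the low ratio there came with the high mitochondrial sum.

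No gene of the other mitochondrial lists passed the test. Of 26 further subunit genes listed under sequence names, 0 were called, 19 were positive and the median was 0.09. That is 73.1% positive, against 50.2% of all tested genes. Among the 26, only T27E9.2 did not overlap between groups, at 188 ± 8.32 CPM under cpr-6 RNAi and 173 ± 3.64 CPM under EV (SD, n = 4 each; log2 fold change 0.12, edgeR unadjusted p = 0.127). The share not overlapping with cpr-6 RNAi higher was 1.26% over all tested genes. Of 23 genes of the tricarboxylic acid cycle and pyruvate dehydrogenase, 0 were called and 12 were positive, with a median of 0.00. aco-2, the mitochondrial aconitase, stood at 55.4 ± 2.71 CPM under cpr-6 RNAi and 60.7 ± 6.73 CPM under EV (log2 fold change -0.13, edgeR unadjusted p = 0.204). Of 7 genes of ubiquinone synthesis, 0 were called and 4 were positive. Of 5 assembly factors outside the name rule, 0 were called and 1 was positive, or 2 of 5 without cpr-6 RNAi replicate 4. Of 5 tested carrier, inhibitor and cytochrome c genes, 0 were called and 5 were positive, or 3 of 5 without cpr-6 RNAi replicate 4. The adenine nucleotide carrier ant-1.1, which exchanges ATP for ADP, stood at 2279 ± 136 CPM under cpr-6 RNAi and 2233 ± 78.7 CPM under EV.

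The mitochondrial unfolded protein response is a stress programme known to be switched on when respiratory chain subunits are depleted. Of its 10 listed genes 0 were called, 4 were positive and the median was -0.05. Without cpr-6 RNAi replicate 4, 5 of 10 were positive and the median was 0.00. hsp-6, the mitochondrial HSP70 commonly used as its reporter, had 547, 561, 560 and 451 CPM under cpr-6 RNAi, against 633, 587, 559 and 601 CPM under EV. cpr-6 RNAi replicates 2 and 3 lay just above the lowest EV library, so the groups overlapped (log2 fold change -0.17 ± 0.0838, edgeR unadjusted p = 0.0627). hsp-60 stood at 185 ± 30.2 CPM under cpr-6 RNAi and 198 ± 8.35 CPM under EV (SD, n = 4 each).

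Markers of tissues were read beside these values. For body wall muscle, which is rich in mitochondria, 9 of 10 markers were positive and 0 were called. Their sum ran from 5808 to 7229 CPM under cpr-6 RNAi and from 3955 to 6400 CPM under EV. Most of it was a single gene, unc-54, at 3574 ± 506 CPM under cpr-6 RNAi and 2879 ± 894 CPM under EV. Of the 10 markers, only the actin gene act-4 did not overlap between groups, at 634 ± 8.22 CPM under cpr-6 RNAi and 548 ± 48.5 CPM under EV (SD, n = 4 each). Of all tested genes 1.26% did not overlap with cpr-6 RNAi higher. For the germline, 1 of 8 was positive, with sums of 5020 to 8119 CPM under cpr-6 RNAi and 6799 to 7288 CPM under EV. Without cpr-6 RNAi replicate 4, 8 of 8 germline markers were positive with a median of 0.09, while 9 of 10 muscle markers were positive with a median of 0.18. Without EV replicate 1 or 2, 7 of 10 muscle markers were positive, with medians of 0.13 and 0.18. Without EV replicate 3 or 4, 10 of 10 were, with medians of 0.27 and 0.31. Pharynx markers (3 genes) summed to 24.7 to 44.4 CPM under cpr-6 RNAi and 17.6 to 38.1 CPM under EV. Intestine markers (6 genes) summed to 16573 to 27057 CPM under cpr-6 RNAi and 18966 to 25139 CPM under EV. Most of this was the vitellogenin gene vit-5, at means of 15850 and 14679 CPM, and 3 of the 6 were positive. Hypodermis markers (3 genes) summed to 759 to 1068 CPM under cpr-6 RNAi and 601 to 868 CPM under EV, and most of this was rol-6, at means of 637 and 561 CPM. Neuron markers (6 genes) summed to 1000 to 1064 CPM under cpr-6 RNAi and 932 to 1090 CPM under EV, and most of this was snb-1, at means of 647 and 651 CPM. Sperm markers (3 genes) summed to 4.36 to 15.1 CPM under cpr-6 RNAi and 3.30 to 9.34 CPM under EV. The highest cpr-6 RNAi sums for muscle, pharynx, hypodermis, neurons and sperm were all those of replicate 4. Over cpr-6 RNAi replicates 1 to 3 the mean sums were 27.2 CPM for pharynx and 5.90 CPM for sperm, against EV means of 26.9 and 6.46 CPM. For muscle they were 5986 against 5221 CPM, for hypodermis 796 against 720 CPM and for neurons 1027 against 1006 CPM. No marker was at 0 in all libraries. The part of muscle or other tissue content in the mostly positive fold changes was not tested.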

How the data were processed

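The authors deposited 1 table of raw counts per gene for 8 libraries (WBcel235). The submitters' processing notes name HTSeq 0.12.4, TopHat2 2.1.1, cutadapt 2.10 and DESeq2 1.30.1. Not stated in any source used here are their settings, the annotation release, and whether strand and molecular identifiers were used. If amplified copies were counted, intervals from counts are too narrow. The 8 columns of normalized values were not used.

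Counts were fitted with edgeR 4.0.16 (R 4.3.3; two-sided robust quasi-likelihood test of treatment; TMM factors; genes kept by filterByExpr at min.count 10), with Benjamini-Hochberg adjustment over all 10932 genes tested and a threshold of 0.05. CPM used TMM-scaled library sizes. Standard errors are the log2 fold change over the root of F. The cpr-6 level also had an exact two-sided permutation test (p = 0.0286, the smallest that 4 against 4 allows). The fit was tested on simulated data.

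Alternatives were other scalings and filters, DESeq2 1.42.0, limma 3.58.1 voom, the replicate number as a block, a term for replicates 1 and 2 against 3 and 4, and each library left out. The authors' model divided replicates 1 and 2 from 3 and 4, and what this division stands for is not stated. The main fit did not include it. Replicate numbers were not taken as pairs, since no label pairs the libraries. The genes and lists were chosen with earlier results of these data known. The rule for genes described with their statistics took the 8 singly named genes, the 12 with the smallest p-values and the paralog pairs. It also took the highest and lowest counts per complex and, from each other list, up to 3 genes with the smallest p. hsp-60 was described outside that rule. Gene names come from the deposited table, and lengths and overlaps from its annotation columns and Ensembl release 115.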

Additional observations from a re-analysis of the deposited data

Results flagged for a closer look

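In 12 of 130 groups of 4 values, 1 library lay farther from the other 3 than Dixon's 95% criterion allows. Chance gives about 1 in 20 such groups. cpr-6 RNAi replicate 4 accounted for 9 of the 12, and the values are not independent of each other.

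In that library asg-2, a subunit g gene of the ATP synthase, stood at 160.18 CPM, against 115.36 in the next library of its group, and ucr-2.1, a core protein gene of complex III, stood at 44.731 CPM, against 34.569. The X-linked gene's share of its pair was 56.263% for asg-2 with asg-1, 32.57% for ucr-2.1 with ucr-2.3 and 27.048% for ucr-2.2 with ucr-2.3. The autosomal flavoprotein gene sdha-2 was low at 27.201 CPM, and cox-6A, a subunit of complex IV, was high at 850.37 CPM. Mitochondrially encoded subunits summed to 19764 CPM, and the nuclear sum over that sum was 0.69306. What sets this library apart was not tested.

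The remaining values were atp-3, of the stalk of the ATP synthase, at 617.09 CPM in cpr-6 RNAi replicate 3 (highest), cyc-1, cytochrome c1, at 121.12 CPM in EV replicate 3 (lowest), and asg-2 at 98.839 CPM in EV replicate 2 (lowest).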

How the results depend on the processing

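Under every alternative run, 0 of the tested oxidative phosphorylation genes and 0 genes of the other mitochondrial and tissue marker lists passed the test. The median log2 fold change ran from 0.04 (no low-count filter) to 0.07, and with each library left out from 0.04 to 0.07, with 38 to 44 genes positive. By current gene names 66 genes were tested (52 positive, median 0.06). For cpr-6, leaving out libraries gave -3.34 to -3.12. Over all genes, edgeR called 1 with the filter, which was cpr-6 itself, and 28 without it. DESeq2 called 5, and the fit with the replicate number as a block called 2. Leaving out cpr-6 RNAi replicate 4 gave 3 and leaving out replicate 2 gave 2. Same-numbered libraries deviated together with correlations of -0.031, 0.1214, 0.0187 and 0.2487 for numbers 1 to 4. The value for number 4 was the highest of any cross-group pair, while cpr-6 RNAi replicate 2 correlated better with EV replicate 1 (0.1847). The numbers were not taken as pairs, and shared handling of same-numbered libraries was not tested. With the replicate block the median was 0.05, 42 genes were positive, cpr-6 was at -3.23 and no call among these genes changed. With the term for replicates 1 and 2 against 3 and 4 the median was 0.06, 42 genes were positive and cpr-6 was at -3.22.

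Estimates near 0 changed sign, and the cause was not tested. asb-1 was at -0.0071 with library totals only and -0.011 without the filter. nuo-2 was at -0.0027 with RLE scaling, -0.0094 with library totals, -0.016 without the filter and -0.0033 in DESeq2. nduf-7 was at 0.0058 with the strict filter of 50 counts. Over the left-out libraries asb-1 ran from -0.037 to 0.073, clk-1 from -0.043 to 0.084, cox-10 from -0.029 to 0.17, cox-11 from -0.069 to 0.038, cox-18 from -0.070 to 0.089, cox-6C from -0.022 to 0.097, cyc-1 from -0.072 to 0.0091, cyc-2.1 from -0.065 to 0.12, hpo-18 from -0.063 to 0.16, isp-1 from -0.0031 to 0.044, mev-1 from -0.0046 to 0.077, nduf-2.2 from -0.14 to 0.044, nduf-7 from -0.079 to 0.040, nuo-2 from -0.024 to 0.032, sdhb-1 from -0.025 to 0.074, ucr-1 from -0.011 to 0.062, ucr-11 from -0.024 to 0.097 and ucr-2.3 from -0.080 to 0.027. The X-linked median ran from 0.05 to 0.18. In any setting, an unadjusted p under 0.05 was reached by at most 2 of them; atp-5, for example, stood at 0.0283 under the strict filter and 0.0200 without cpr-6 RNAi replicate 4, ucr-2.2 at 0.0460 with the block, and cox-17 at 0.0183 without EV replicate 3 (all edgeR). cox-14 had 5 counts, and Y70G10A.4, which overlaps it on the same strand, had 647. The part of this overlap in the low count was not tested. The intervals of cox-10, cox-17 and cox-18 were the widest.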
